A study of Arabidopsis thaliana with 12 samples.

Results

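The 10 genes described here encode enzymes that add acetyl groups to histones or take them off, and they were selected by locus identifier from the 27655 genes of the deposited expression table. They are the acetyltransferases HAG1, also called GCN5 (AT3G54610), HAC1 (AT1G79000), HAC12 (AT1G16710), HAM1 (AT5G64610) and HAM2 (AT5G09740), and the deacetylases HDA15 (AT3G18520), HDA8 (AT1G08460), HD2A (AT3G44750), HD2B (AT5G22650) and HD2C (AT5G03740). RNA sequencing libraries were made from seedlings of Arabidopsis thaliana in 4 groups of 3, namely fve-4 at 27 °C, fve-4 at 21 °C, Col at 27 °C and Col at 21 °C. Col is the Columbia wild type, and fve-4 carries a mutant allele of FVE, a WD40-repeat protein found in histone deacetylase complexes. All seedlings grew for 7 days at 21 °C with 8 h of light and 16 h of darkness. The groups at 27 °C were moved there at ZT1 (hours after lights on), the groups at 21 °C stayed, and every seedling was harvested at ZT13, after 12 h. The title of the series names FVE and the deacetylase HDA9 as partners in growth at warm temperature, and the series asks what FVE contributes to that response. The labels name 1 mutant allele, and they do not say how many seedlings made up a library or whether the 3 libraries of a group came from separate cultures, so p-values measure the spread between these libraries.

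Acetyl groups on histone tails loosen the hold of histones on DNA and are read by proteins that help transcription, and deacetylases reverse the mark. HAG1 is the catalytic subunit of the SAGA coactivator complex, HAC1 and HAC12 belong to the CBP family of coactivators, and HAM1 and HAM2 are the paired MYST enzymes of the NuA4 complex that acetylate histone H4. HDA15 and HDA8 are deacetylases related to yeast RPD3 and HDA1, and HDA15 is known in Arabidopsis as a partner of PIF and HFR1 factors in light and warm growth. The HD2 proteins are a family found in plants that resides in the nucleolus, where HD2A takes part in silencing of ribosomal RNA genes, HD2B acts with HD2A in leaf development and seed dormancy, and HD2C is known to bind HDA6.

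The libraries held between 11465313 and 14566380 reads recovered from the deposited values, and each of the 10 genes had between 176 reads (95% exact Poisson interval 151 to 204) and 3173 reads (3064 to 3285) in a library, intervals that cover counting error only. FVE, the gene that checks the genotype labels, was at 7, 6.82 and 6.64 TPM (transcripts per 1000000) in fve-4 at 27 °C, against 39.3, 41.6 and 39.9 TPM in Col at 27 °C. At 21 °C FVE was at 4.89, 5.48 and 5.08 TPM in fve-4 and at 52.7, 51.8 and 50.3 TPM in Col. The genotype labels thus held in all 12 libraries, and FVE does not check the temperature labels. Markers of both green tissue and root were present in every library, with summed levels of 26703 to 36369 TPM for 5 green tissue genes and 92.4 to 180 TPM for 9 root genes. No marker of these lists, or of the 13 genes of dividing cells, was at 0 in all libraries. Replicate 3 of Col at 27 °C differed from the rest of its group, with the lowest depth, the lowest root sum of 92.4 TPM against 133 and 140 TPM, and a green tissue sum of 30500 TPM against 27002 and 27323 TPM.

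HD2B had the highest level of the 10 genes in every group. Per length of gene span, the scale of the deposited values, it averaged 177 ± 5.8 TPM in fve-4 at 27 °C, 160 ± 4.7 TPM in fve-4 at 21 °C, 146 ± 9.8 TPM in Col at 27 °C and 202 ± 13 TPM in Col at 21 °C (SD, n = 3 each). On the same scale HAG1 had the lowest level in every group, between 8.09 ± 0.69 TPM in fve-4 at 21 °C and 10.5 ± 0.89 TPM in Col at 27 °C. Spans include introns, and the span of these genes was between 1.06 (HDA8) and 1.96 (HAG1) times the exon length. Recomputed per exon length, HD2B stayed first in all 4 groups, while HAG1 at 14.2 ± 0.61 TPM and HAC12 at 14.1 ± 0.62 TPM overlapped in fve-4 at 27 °C, as they did in the other 3 groups. In the middle of the order many neighbours were not apart: on the span scale, HDA8, HAM1, HDA15 and HAC1 followed each other in fve-4 at 27 °C with overlapping libraries. HD2A and HD2C took different places in different groups on both scales. HD2A came after HD2B and before HD2C at 21 °C in both genotypes, and HD2C came directly after HD2B at 27 °C in both.

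Warmth raised the RNA of most acetyltransferases and of the deacetylases HDA15 and HDA8 in 1 or both genotypes, while the HD2 genes responded differently in fve-4 and Col. In fve-4, 5 of the 10 genes were higher at 27 °C than at 21 °C (HDA8, HAM2, HD2C, HDA15 and HAM1) by limma at an adjusted p under 0.05, where 25.2% of all 19863 genes tested were higher. In the same comparison 0 of the 10 were lower, also at an unadjusted p under 0.05 and by limma-voom on recovered reads, where 14.0% of all genes were lower. In Col, 6 of the 10 were higher at 27 °C (HAM2, HDA8, HDA15, HAC1, HAM1 and HAC12) and 2 were lower (HD2A and HD2B), where 36.7% of all genes were higher and 25.1% lower. The median change of the 10 genes was 0.26 in fve-4 and 0.28 in Col on the log2(TPM + 1) scale, beside 0.07 and 0.08 over all genes. Libraries of the 2 temperatures did not overlap for 9 of the 10 genes in fve-4, where 50.2% of all genes did not overlap. In Col they did not overlap for 8 of the 10, where 66.5% of all genes did not. A lack of overlap was thus common in this table. The balance of higher and lower calls depends on the scaling: 64.2% of the genes called in fve-4 and 59.4% of those called in Col were higher as deposited, and 49.8% and 49.9% after rescaling the libraries by median-ratio size factors. Whole seedlings were sampled, so more RNA per cell and more cells of a type that expresses a gene cannot be told apart in any result.

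**Figure D1:**
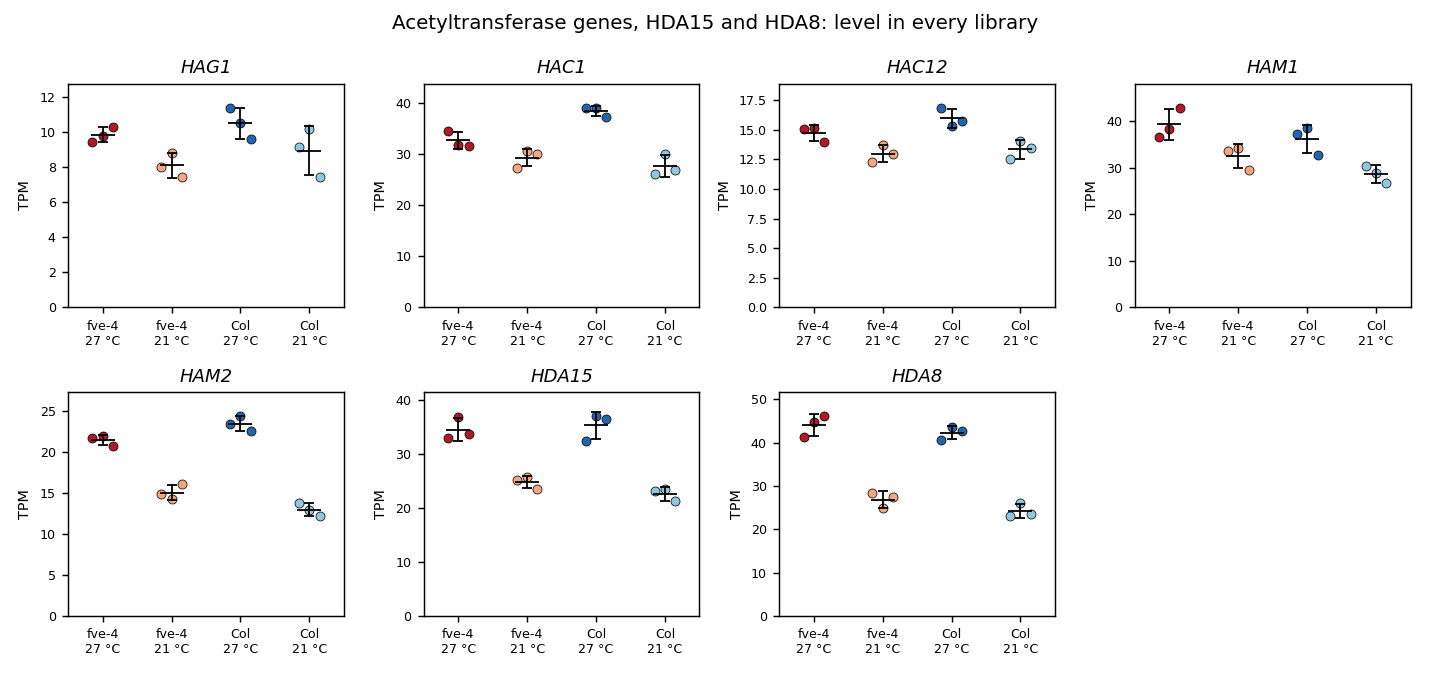
Level in TPM (linear axis from 0) of the 5 acetyltransferase genes, HDA15 and HDA8 in each of the 12 libraries, with points for libraries and black bars for the mean and SD of 3 libraries. All but HAG1 lie higher at 27 °C than at 21 °C in both genotypes with no overlap. Of all genes tested, 50.2% did not overlap in fve-4 and 66.5% in Col. HAC1 is highest in Col at 27 °C, at 37.3 to 39.2 TPM.

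HAM2 was the acetyltransferase gene with the largest estimated warm change in both genotypes. Its level was 21.6, 21.9 and 20.7 TPM in fve-4 at 27 °C and 14.8, 14.2 and 16 TPM in fve-4 at 21 °C. The groups did not overlap, and HAM2 rose by 0.49 ± 0.07 (SE) on the log2 scale (adjusted p = 0.000142 by limma), a ratio of mean TPM of 1.43. In Col it was at 23.4, 24.3 and 22.5 TPM at 27 °C, against 13.7, 12.9 and 12.1 TPM at 21 °C. Col libraries were likewise apart by temperature, with a rise of 0.82 ± 0.07 (adjusted p = 3.67e-07 by limma) and a ratio of 1.82. The warm change of HAM2 was smaller in fve-4 than in Col by -0.33 ± 0.10 in the interaction of genotype and temperature (adjusted p = 0.0254 by limma, 0.0206 to 0.0628 over all alternatives). Leaving out replicate 3 of fve-4 at 27 °C (adjusted p = 0.0588 by limma) or at 21 °C (0.0577), replicate 2 of Col at 27 °C (0.0601) or replicate 3 of Col at 21 °C (0.0628) ended that call.

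HAM1, the near copy of HAM2, had smaller warm differences, and the difference between the pair was not tested. It was at 36.7, 38.4 and 43 TPM in fve-4 at 27 °C and at 33.7, 34.3 and 29.5 TPM in fve-4 at 21 °C. Every warm library lay above every cool one, and the rise was 0.27 ± 0.08 (SE, log2; adjusted p = 0.0209 by limma). The call was lost after median-ratio rescaling (0.20, adjusted p = 0.069 by limma), by limma-voom on recovered reads (adjusted p = 0.0517) and without replicate 3 of fve-4 at 27 °C (0.0981) or at 21 °C (0.0926). In Col, HAM1 was at 37.3, 38.5 and 32.8 TPM at 27 °C and at 30.5, 28.9 and 26.7 TPM at 21 °C. The Col groups were apart too, and the rise of 0.32 ± 0.08 passed (adjusted p = 0.00431 by limma). The interaction of HAM1 was -0.05, with a 95% interval of -0.31 to 0.20 (adjusted p = 0.771 by limma). HAM2 made up 35.3 ± 2.5% of the summed level of the pair in fve-4 at 27 °C and 31.7 ± 3.1% in fve-4 at 21 °C, where the libraries overlapped (32.5 to 37% and 29.2 to 35.2%). The share was 39.3 ± 1.2% in Col at 27 °C and 31 ± 0.15% in Col at 21 °C, with no overlap.

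HAC1 had its highest levels in warm Col seedlings. It was at 34.6, 31.9 and 31.7 TPM in fve-4 at 27 °C, against 39.1, 39.2 and 37.3 TPM in Col at 27 °C. All 3 mutant libraries lay below all 3 wild-type ones, by -0.23 ± 0.07 (SE, log2; adjusted p = 0.0166 by limma). That call was lost without fve-4 replicate 2 (0.0526) or 3 (0.0585) or Col replicate 2 (0.051) at 27 °C, all adjusted p-values of limma. At 21 °C HAC1 was at 27.4, 30.7 and 30 TPM in fve-4 and at 26.1, 30.1 and 26.9 TPM in Col. These groups overlapped, with a difference of 0.08 and a 95% interval of -0.06 to 0.23. With warmth HAC1 rose by 0.46 ± 0.07 in Col (adjusted p = 4.26e-05 by limma), and its difference in fve-4 was 0.15 ± 0.07 (adjusted p = 0.092). The interaction was -0.31 ± 0.10 (adjusted p = 0.0242 by limma), with adjusted p-values between 0.00776 and 0.0596 over all alternatives. It was lost in 6 of the 12 fits that left out 1 library, namely replicate 2 (0.0514) or 3 (0.0559) of fve-4 at 27 °C, replicate 2 (0.0596) of fve-4 at 21 °C, replicate 2 (0.0521) of Col at 27 °C, and replicate 1 (0.0594) or 3 (0.0554) of Col at 21 °C.

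HAC12, the closest relative of HAC1 among the genes compared, had a lower level than HAC1 in every library. It was at 15.1, 15.2 and 14 TPM in fve-4 at 27 °C and at 12.3, 13.7 and 13 TPM in fve-4 at 21 °C. The groups were apart, but the difference of 0.17 ± 0.08 (SE, log2) did not pass (adjusted p = 0.0932 by limma). In Col it was at 16.9, 15.3 and 15.8 TPM at 27 °C and at 12.5, 14.1 and 13.5 TPM at 21 °C. Warm Col libraries were all higher, and the rise of 0.24 ± 0.08 passed (adjusted p = 0.0143 by limma), but not after median-ratio rescaling (0.15, adjusted p = 0.111) or without replicate 1 of Col at 27 °C (0.0584) or at 21 °C (0.0606). HAG1, the least abundant, was at 9.46, 9.75 and 10.3 TPM in fve-4 at 27 °C and at 8.01, 8.82 and 7.44 TPM in fve-4 at 21 °C. Its groups did not overlap in fve-4, with a difference of 0.25 and a 95% interval of 0.01 to 0.50 that did not pass the adjusted threshold (adjusted p = 0.0888 by limma). In Col HAG1 was at 11.4, 10.5 and 9.6 TPM at 27 °C and at 9.17, 10.2 and 7.46 TPM at 21 °C. Those groups overlapped (0.21, 95% interval -0.03 to 0.45, adjusted p = 0.113 by limma), and of the 18 alternatives only the fit without replicate 2 of Col at 21 °C passed (0.31, adjusted p = 0.0394).

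HDA8 had the largest warm rise of the 10 genes in fve-4. This deacetylase was at 41.3, 44.8 and 46.1 TPM in fve-4 at 27 °C and at 28.4, 24.8 and 27.4 TPM in fve-4 at 21 °C. No library of 1 temperature reached those of the other, and the rise was 0.69 ± 0.07 (SE, log2; adjusted p = 4.17e-06 by limma), a ratio of 1.64. In Col HDA8 was at 40.7, 43.7 and 42.6 TPM at 27 °C and at 23.1, 26 and 23.6 TPM at 21 °C. These groups did not overlap either, with a rise of 0.78 ± 0.07 (adjusted p = 3.33e-07 by limma) and a ratio of 1.75. Between the genotypes the libraries overlapped at both temperatures, and the interaction was -0.09 with a 95% interval of -0.30 to 0.12 (adjusted p = 0.525 by limma).

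HDA15 also rose in both genotypes. It was at 33, 36.9 and 33.7 TPM in fve-4 at 27 °C and at 25.2, 25.7 and 23.6 TPM in fve-4 at 21 °C. The temperatures were apart, with a rise of 0.46 ± 0.07 (SE, log2; adjusted p = 0.000183 by limma) and a ratio of 1.39. In Col it was at 32.5, 37 and 36.5 TPM at 27 °C and at 23.1, 23.5 and 21.2 TPM at 21 °C. Warm Col libraries again lay above all cool ones, with a rise of 0.62 ± 0.07 (adjusted p = 4.32e-06 by limma) and a ratio of 1.56. The interaction of HDA15 was -0.16 with a 95% interval of -0.37 to 0.06 (adjusted p = 0.248 by limma). The calls of HDA8, HDA15 and HAM2 for warmth held in both genotypes under all 18 alternatives.

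**Figure D2:**
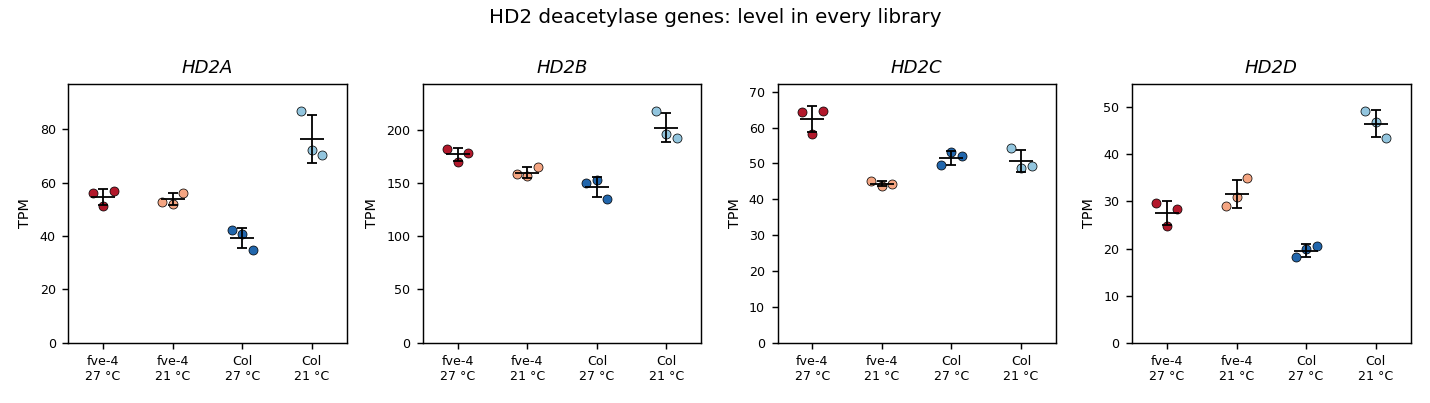
Level in TPM (linear axis from 0) of HD2A, HD2B, HD2C and the fourth family gene HD2D in each of the 12 libraries, with points for libraries and black bars for the mean and SD of 3 libraries. HD2A, HD2B and HD2D have their lowest levels in Col at 27 °C and their highest in Col at 21 °C, with both fve-4 groups between them, and HD2C is highest in fve-4 at 27 °C.

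The HD2 genes formed a second pattern, in which fve-4 was called higher than Col at 27 °C and lower than Col at 21 °C. HD2A was at 56, 51.3 and 56.8 TPM in fve-4 at 27 °C and at 52.9, 52 and 56.3 TPM in fve-4 at 21 °C. The mutant libraries of both temperatures overlapped, with a warm difference of 0.03 and a 95% interval of -0.16 to 0.21 (adjusted p = 0.841 by limma). In Col HD2A was at 42.1, 40.9 and 34.9 TPM at 27 °C and at 86.7, 72.1 and 70.3 TPM at 21 °C. The wild-type groups were far apart, and HD2A fell by 0.94 ± 0.09 (SE, log2) with warmth (adjusted p = 4.6e-07 by limma), to a ratio of 0.515. The mutant was therefore higher than Col at 27 °C (0.47 ± 0.09, adjusted p = 0.000885 by limma) and lower than Col at 21 °C (-0.49 ± 0.09, adjusted p = 0.00122), with no overlap at either temperature. The interaction was 0.96 ± 0.12 (adjusted p = 8.04e-05 by limma), the largest of the 10 genes, and stayed between 0.87 and 1.02 under all 18 alternatives.

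HD2B also had its lowest level in Col at 27 °C and its highest in Col at 21 °C, with smaller estimated differences between the genotypes than HD2A at both temperatures. It was at 182, 170 and 178 TPM in fve-4 at 27 °C and at 158, 156 and 165 TPM in fve-4 at 21 °C. These groups were apart, but the difference of 0.15 ± 0.06 (SE, log2) did not pass (adjusted p = 0.0584 by limma), except without replicate 3 of Col at 27 °C (0.0312) or replicate 1 of Col at 21 °C (0.0394). In Col HD2B was at 150, 153 and 135 TPM at 27 °C and at 217, 196 and 192 TPM at 21 °C. All warm Col libraries lay below all cool ones, and HD2B fell by 0.46 ± 0.06 (adjusted p = 9.46e-06 by limma). Against Col, the mutant was higher by 0.28 ± 0.06 at 27 °C (adjusted p = 0.00227 by limma) and lower by -0.34 ± 0.06 at 21 °C (adjusted p = 0.00118). The interaction was 0.61 ± 0.08 (adjusted p = 0.000125 by limma).

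HD2C rose with warmth in fve-4. It was at 64.3, 58.2 and 64.5 TPM in fve-4 at 27 °C and at 45.2, 43.7 and 44.2 TPM in fve-4 at 21 °C. The 2 mutant groups did not overlap, and the rise was 0.48 ± 0.06 (SE, log2; adjusted p = 2.72e-05 by limma), a ratio of 1.4. In Col it was at 49.5, 53.2 and 52 TPM at 27 °C and at 54.3, 48.6 and 49.2 TPM at 21 °C. The Col libraries overlapped, with a difference of 0.03 and a 95% interval of -0.10 to 0.15 (adjusted p = 0.725 by limma), which was -0.07 after median-ratio rescaling. The interaction of HD2C was 0.45 ± 0.08 (adjusted p = 0.00113 by limma). At 27 °C the mutant was higher than Col by 0.27 ± 0.06 (adjusted p = 0.00313 by limma). At 21 °C it was lower by -0.19 ± 0.06 (adjusted p = 0.0349 by limma), a call lost without a variance trend (0.0625), without fve-4 replicate 1 (0.0607), 2 (0.0967) or 3 (0.073), and without Col replicate 1 (0.137) or 3 (0.0547).

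Summed over HD2A, HD2B and HD2C, the level was 302, 280 and 300 TPM in fve-4 at 27 °C, 256, 251 and 265 TPM in fve-4 at 21 °C, 242, 247 and 222 TPM in Col at 27 °C and 358, 317 and 312 TPM in Col at 21 °C. No library of 1 group overlapped another, and the mutant sums lay inside the range spanned by the wild-type sums. HD2B held a nearly constant share of the sum, between 60.2 ± 0.71% in fve-4 at 27 °C and 61.9 ± 0.19% in fve-4 at 21 °C among the 4 groups. The share of HD2A was 18.6 ± 0.33% in fve-4 at 27 °C and 20.8 ± 0.32% in fve-4 at 21 °C, against 16.6 ± 0.84% in Col at 27 °C and 23.2 ± 0.91% in Col at 21 °C. HD2C had 21.2 ± 0.39% in fve-4 at 27 °C and 17.2 ± 0.49% in fve-4 at 21 °C, and 21.8 ± 1.5% in Col at 27 °C and 15.4 ± 0.32% in Col at 21 °C (SD, n = 3 each). In both genotypes the share of HD2C was higher and that of HD2A lower at 27 °C than at 21 °C, with no overlap between temperatures.

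Between the genotypes, 3 of the 10 genes were higher in fve-4 than in Col at 27 °C (HD2A, HD2B and HD2C) and 1 was lower (HAC1) by limma, where 20.9% of all genes tested were higher and 17.6% lower. At 21 °C, 3 were lower in fve-4 (again HD2A, HD2B and HD2C), where 8.49% of all genes were lower. There 0 were higher by limma at the adjusted threshold and by limma-voom, against 15.3% of all genes, and 1 (HAM2) was higher at an unadjusted p under 0.05. HAM2 was at 14.8, 14.2 and 16 TPM in fve-4 and at 13.7, 12.9 and 12.1 TPM in Col at 21 °C. Its groups did not overlap, and the difference of 0.21 ± 0.07 (SE, log2; adjusted p = 0.0541 by limma) passed without a variance trend or without replicate 1 of Col (adjusted p = 0.047 in each). At 27 °C HAM2 lay lower in fve-4, at 21.6, 21.9 and 20.7 TPM, than in Col, at 23.4, 24.3 and 22.5 TPM. Those groups did not overlap either, and the difference did not pass (adjusted p = 0.197 by limma). HAG1, HAC12, HAM1, HDA15 and HDA8 passed in neither genotype comparison, with differences between -0.12 (HAG1 at 21 °C, 95% interval -0.37 to 0.12) and 0.17 (HAM1 at 21 °C, 95% interval -0.01 to 0.35). In the interaction, 3 genes were positive (HD2A, HD2B and HD2C) and 2 negative (HAC1 and HAM2), where 14.4% of all genes were called positive and 18.0% negative. Of the genes called between the genotypes at 21 °C, 64.3% were higher in fve-4 as deposited and 47.9% after rescaling. Libraries of the 2 genotypes did not overlap for 6 of the 10 genes at 27 °C, beside 50.1% of all genes. At 21 °C they did not overlap for 5 of the 10, beside 40.6% of all genes. The calls of the 3 HD2 genes at 27 °C and in the interaction held under all 18 alternatives.

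**Figure D3:**
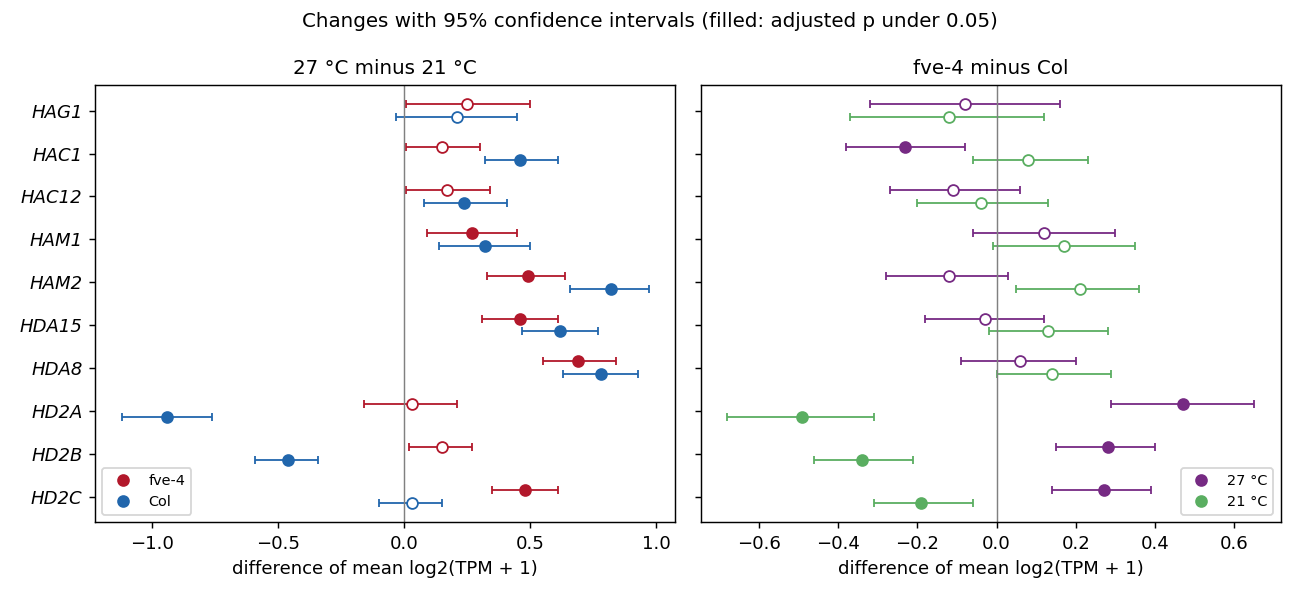
Differences of mean log2(TPM + 1) for the 10 genes with 95% confidence intervals, 27 °C minus 21 °C in fve-4 and Col on the left and fve-4 minus Col at 27 °C and 21 °C on the right, with filled points for adjusted p under 0.05 by limma. On the right, HD2A (0.47 and -0.49), HD2B (0.28 and -0.34) and HD2C (0.27 and -0.19) lie on opposite sides of 0 at the 2 temperatures.

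With warmth, other acetyltransferases and deacetylases of the genome were called about as often as all genes. Of 20 such genes 15 were tested, and with warmth 4 rose and 2 fell in fve-4 by limma, where 25.2% of all genes rose and 14.0% fell. In Col 6 rose and 3 fell, where 36.7% of all genes rose and 25.1% fell. Their median change was 0.05 in fve-4 and 0.06 in Col on the log2 scale, beside 0.07 and 0.08 over all genes. Between the genotypes at 27 °C, 1 of the 15 was higher and 1 lower in fve-4, beside 20.9% and 17.6% of all genes. These counts were 1 to 2 and 1 to 4 over all alternatives. At 21 °C, 2 were higher and 1 lower (1 to 4 and 1 to 2), beside 15.3% and 8.49% of all genes. In the interaction, HD2D was the 1 gene of the 15 with a positive call, beside 14.4% of all genes. Negative calls went to 2 genes (1 to 3 over all alternatives), beside 18.0% of all genes. The count of 2 that fell with warmth in fve-4 was 1 when replicate 2 or 3 of its 27 °C group, or replicate 1 or 2 of its 21 °C group, was left out. HD2D (AT2G27840), the fourth family gene, was at 29.6, 24.8 and 28.3 TPM in fve-4 at 27 °C and at 29, 31 and 34.9 TPM in fve-4 at 21 °C. In Col it was at 18.1, 20 and 20.6 TPM at 27 °C and at 49.1, 46.8 and 43.4 TPM at 21 °C. Its lowest and highest groups were those of HD2A and HD2B, Col at 27 °C and Col at 21 °C, with a fall of 1.21 ± 0.09 in Col (SE, log2; adjusted p = 4.31e-08 by limma) and an interaction of 1.01 ± 0.12 (adjusted p = 5.74e-05). In fve-4 the warm difference of HD2D was -0.19 ± 0.09 (adjusted p = 0.0937 by limma), which passed after median-ratio rescaling (0.0224) and by limma-voom (0.0169). HAF1 (AT1G32750), an acetyltransferase of the TAF1 type, rose by 0.36 ± 0.08 in fve-4 (adjusted p = 0.00206 by limma). HDA5 (AT5G61060), a class II deacetylase, rose by 0.27 ± 0.06 in fve-4 (adjusted p = 0.00374 by limma) and by 0.61 ± 0.06 in Col (adjusted p = 1.67e-06), with an interaction of -0.33 ± 0.09 (adjusted p = 0.0116).

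Not every deacetylase rose in the warm. HDA9 (AT3G44680), named in the title of the series, was lower at 27 °C by -0.25 ± 0.08 in fve-4 (SE, log2; adjusted p = 0.0226 by limma). That fall did not pass when replicate 2 (0.0631) or 3 (0.0956) of the mutant at 27 °C, or replicate 1 (0.0652) or 2 (0.0685) of the mutant at 21 °C, was left out. In Col HDA9 was lower by -0.34 ± 0.08 (adjusted p = 0.0024 by limma). HDA14 (AT4G33470), a deacetylase of organelles, fell by 0.48 ± 0.07 in fve-4 (adjusted p = 0.000152 by limma) and by 0.35 ± 0.07 in Col (adjusted p = 0.000833). HDA6 (AT5G63110), which silences repeats and ribosomal RNA genes, was at 28.4 ± 1.6 TPM in fve-4 at 27 °C, 29.2 ± 0.69 TPM in fve-4 at 21 °C, 27.4 ± 2.2 TPM in Col at 27 °C and 26.3 ± 0.67 TPM in Col at 21 °C, and passed in no comparison. HDA19 (AT4G38130), the general RPD3-type deacetylase, averaged 110 ± 1.4 TPM in fve-4 at 27 °C, 109 ± 4.1 TPM in fve-4 at 21 °C, 103 ± 2.5 TPM in Col at 27 °C and 99.8 ± 1.1 TPM in Col at 21 °C (SD, n = 3 each). Its difference between fve-4 and Col at 21 °C, 0.13 ± 0.04, passed (adjusted p = 0.0356 by limma). It did not pass after median-ratio rescaling (0.291), by limma-voom (0.298), without a variance trend (0.0854), with the replicate block (0.0505), or when replicate 1 (0.128) or 2 (0.0546) of the mutant or replicate 1 (0.083), 2 (0.0954) or 3 (0.068) of Col at 21 °C was left out.

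Subunits of the SAGA and NuA4 complexes, in which HAG1, HAM1 and HAM2 act, were counted as a list of 18 tested genes. With warmth 5 rose in fve-4 by limma, a share close to the 25.2% of all genes that rose. In Col 10 rose (7 to 10 over all alternatives) and 1 fell, where 36.7% of all genes rose and 25.1% fell. Their median change was 0.14 in fve-4 and 0.28 in Col on the log2 scale, beside 0.07 and 0.08 over all genes. The count of 5 in fve-4 was 2 without replicate 2 of its 27 °C group, and 3 without replicate 3 of that group, without replicate 1 of its 21 °C group or after median-ratio rescaling. ADA2B (AT4G16420), the adaptor that binds HAG1 in SAGA, rose by 0.41 ± 0.06 in fve-4 (SE, log2; adjusted p = 0.000202 by limma) and by 0.78 ± 0.06 in Col (adjusted p = 1.63e-07). Its interaction was -0.37 ± 0.09 (adjusted p = 0.00708 by limma), of the same sign as those of HAC1 and HAM2, where 18.0% of all genes were called negative. The interaction of HAG1 itself did not pass (adjusted p = 0.871 by limma). MRG1 (AT4G37280), a reader of methylated histone H3, rose by 0.30 ± 0.06 in fve-4 (adjusted p = 0.00193 by limma) and by 0.49 ± 0.06 in Col (adjusted p = 1.26e-05). YAF9A (AT5G45600), a YEATS-domain subunit, fell by 0.63 ± 0.07 in Col (adjusted p = 2.87e-06 by limma) and was higher in fve-4 than in Col at 27 °C by 0.46 ± 0.07 (adjusted p = 0.000242). Between the genotypes at 27 °C, 1 of the 18 was higher and 5 were lower in fve-4, beside 20.9% and 17.6% of all genes. At 21 °C 1 was higher (SGF11, 0.32 ± 0.10, adjusted p = 0.0289 by limma), beside 15.3% of all genes. The call of SGF11 was lost after rescaling (0.064), by limma-voom (0.0656) and without replicate 1 (0.077) or 2 (0.125) of the mutant or replicate 1 (0.0818) or 2 (0.0999) of Col.

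Nucleolar genes of ribosome biogenesis were set beside the HD2 genes because HD2 proteins are nucleolar. The list was chosen with earlier results of these data known, so its counts are no independent support for the HD2 pattern. Of 22 tested, 17 fell with warmth in Col by limma, where 25.1% of all genes fell, with a median change of -0.66 on the log2 scale beside 0.08 over all genes. In fve-4 6 fell and 4 rose, where 14.0% of all genes fell and 25.2% rose, with a median of -0.12 beside 0.07. The 6 became 10 after median-ratio rescaling and 12 by limma-voom, and the 4 became 2 under both and without replicate 2 or 3 of fve-4 at 27 °C. Against Col, 15 of the 22 were higher in fve-4 at 27 °C (median 0.29), where 20.9% of all genes were higher. At 21 °C, 12 were lower in fve-4 (median -0.28; 8 to 16 over all alternatives), where 8.49% of all genes were lower. In the interaction 19 were positive (median 0.60), where 14.4% of all genes were positive, with a median of -0.02. FIB2 (AT4G25630), a fibrillarin that methylates ribosomal RNA, fell by 0.34 ± 0.09 in fve-4 (SE, log2; adjusted p = 0.00654 by limma) and by 1.65 ± 0.09 in Col (adjusted p = 2.93e-09). NOP56 (AT1G56110), a core protein of box C/D particles, fell by 1.11 ± 0.08 in Col (adjusted p = 5.63e-08 by limma) and had an interaction of 0.95 ± 0.12 (adjusted p = 6.32e-05). NUC1 (AT1G48920), nucleolin, was lower in fve-4 than in Col at 21 °C by -0.39 ± 0.06 (adjusted p = 0.000302 by limma). The summed level of the 22 genes ran from 1061 to 1092 TPM in fve-4 at 27 °C, from 1126 to 1165 TPM in fve-4 at 21 °C, from 812 to 880 TPM in Col at 27 °C and from 1311 to 1518 TPM in Col at 21 °C. HD2A and HD2B had the same lowest and highest groups as this sum. These groups were not particular to nucleolar genes. The mean sum of 13 genes of dividing cells was also lowest in Col at 27 °C (292 TPM) and highest in Col at 21 °C (399 TPM). YAF9A was at 15.9 and 25.2 TPM in these 2 groups, likewise its lowest and highest.

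**Figure D4:**
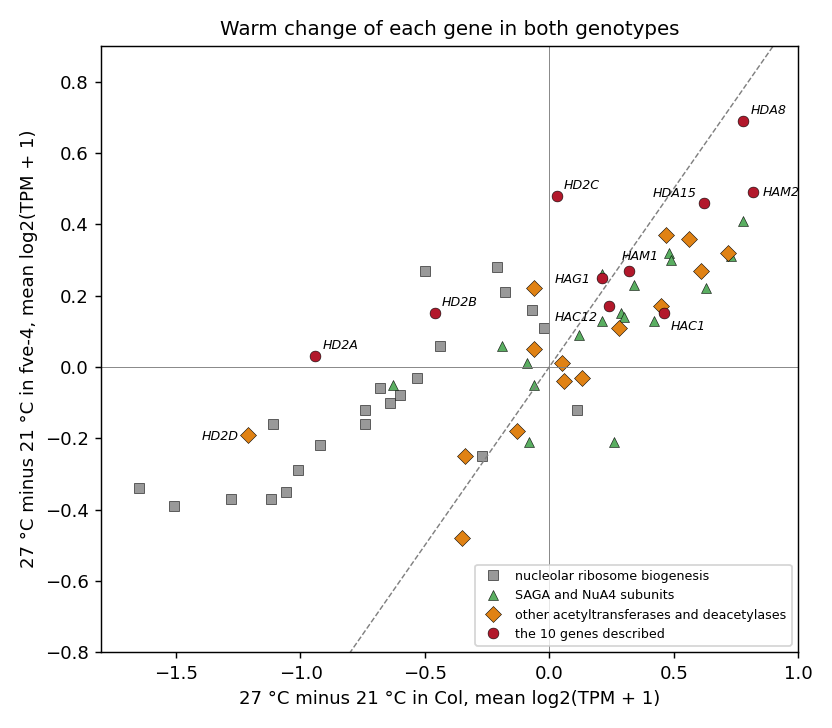
Warm change of each listed gene, 27 °C minus 21 °C as a difference of mean log2(TPM + 1), in fve-4 on the vertical axis and in Col on the horizontal axis, with 1 point per gene and a dashed line where both are equal. HAM2, HDA15 and HDA8 lie at upper right with most SAGA and NuA4 subunits, while HD2A and HD2B lie left of 0 and above the line, as HD2D and most nucleolar genes do.

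Markers of dividing cells, root and green tissue moved in several of the comparisons above. Of 13 genes of dividing cells tested, 11 fell with warmth in Col and 3 in fve-4 by limma, where 25.1% and 14.0% of all genes fell, the count of 3 being 5 without replicate 1 of fve-4 at 21 °C and 6 after rescaling or by limma-voom. At 27 °C, 6 were higher and 1 lower in fve-4 than in Col, where 20.9% of all genes were higher and 17.6% lower. The 1 became 2 after rescaling and without replicate 1 or 2 of fve-4 at 21 °C. At 21 °C, 4 were lower in fve-4, where 8.49% of all genes were lower. The 4 became 2 without replicate 1 of the mutant or replicate 1 or 2 of Col. The summed level of the 13 genes ran from 307 to 322 TPM in fve-4 at 27 °C and from 305 to 370 TPM in fve-4 at 21 °C. It ran from 282 to 307 TPM in Col at 27 °C and from 388 to 420 TPM in Col at 21 °C. PCNA1 (AT1G07370), the sliding clamp of DNA replication, fell by 1.32 ± 0.11 in Col (SE, log2; adjusted p = 1.43e-07 by limma) and had an interaction of 0.93 ± 0.15 (adjusted p = 0.000478). Of 9 root markers, 1 rose and 4 fell with warmth in Col by limma, beside 36.7% and 25.1% of all genes. Their summed levels were 92.4 to 140 TPM at 27 °C and 141 to 158 TPM at 21 °C. In fve-4 1 root marker fell, beside 14.0% of all genes, a count of 0 without replicate 1 at 27 °C or replicate 3 at 21 °C. The root sums in fve-4 overlapped at 139 to 180 TPM at 27 °C and 138 to 174 TPM at 21 °C. Of 5 green tissue markers, 1 rose and 3 fell with warmth in fve-4, beside 25.2% and 14.0% of all genes. In Col 1 rose and 2 fell, beside 36.7% and 25.1% of all genes. The sum of the 5 was 26703 to 27412 TPM in fve-4 at 27 °C and 33505 to 33989 TPM in fve-4 at 21 °C. It was 27002 to 30500 TPM in Col at 27 °C and 34622 to 36369 TPM in Col at 21 °C, a ratio of mean sums of 0.801 in both genotypes. RBCS1A dominated this sum, with 19634 TPM of a mean of 27020 TPM in fve-4 at 27 °C, and its ratios were 0.763 in fve-4 and 0.768 in Col. The marker that rose, LHCB2.1, had ratios of 5.01 in fve-4 and 5.41 in Col, and RCA had 1.01 and 1.02. Root markers were higher in fve-4 than in Col at 27 °C for 6 of 9 genes and lower for 1, beside 20.9% and 17.6% of all genes. Summed levels were 139 to 180 TPM in fve-4 and 92.4 to 140 TPM in Col. The 6 became 0 without replicate 1 of the mutant and 3 without replicate 3 of either genotype, and the 1 became 0 without replicate 1 or 3 of the mutant. Green tissue markers were higher for 1 of 5 and lower for 1 of 5 in that comparison, beside 20.9% and 17.6% of all genes. Their sums were 26703 to 27412 TPM in fve-4 and 27002 to 30500 TPM in Col. Both counts were 0 without replicate 2 or 3 of either genotype, the lower one also without replicate 1 of Col. The part of these cell types in the HD2 differences, and in the warm changes of HDA8, HDA15 and HAM2, was not tested. Without replicate 3 of Col at 27 °C, the library with the lowest root sum, all calls of the 3 HD2 genes at 27 °C and in the interaction remained.

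Likeness of pattern was described by the Pearson correlation of log2(TPM + 1) over the 12 libraries, which fall into 4 groups and share their depth within a library, among 7265 named genes with a mean of at least 5 TPM. Over all 12 libraries HDA8 was most like NDL1 (AT5G56750, r = 0.994) and FAH1 (AT2G34770, r = 0.992), HDA15 most like BSL1 (AT4G03080, r = 0.987), and HAM2 most like NET4B (AT2G30500, r = 0.988). HD2A was most like RBP45A (AT5G54900, r = 0.973) and RPS5B (AT2G37270, r = 0.972), HD2B most like TIM10 (AT2G29530, r = 0.967), and HD2C most like CMT3 (AT1G69770, r = 0.934). HAC1 was most like FRO3 (AT1G23020, r = 0.972), HAC12 most like EMB976 (AT5G27270, r = 0.961), HAM1 most like FHY1 (AT2G37678, r = 0.942), and HAG1 least tied to any gene, with UBC16 (AT1G75440) at r = 0.871. Among the 10 genes themselves, HDA15, HDA8 and HAM2 had r between 0.956 and 0.965 with each other, HD2A and HD2B had r = 0.959, and HD2C stood apart from HD2A (r = 0.0221). These values describe the order of the groups and carry no test.

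Several of these genes are close copies, which bears on how reads could be assigned. In the RefSeq annotation the coding sequences of HAM1 and HAM2 were 84.6% identical, those of HAC1 and HAC12 82.3%, and those of HD2A and HD2B 74.1%. No window of 100 bases of 1 of these genes occurred exactly in its copy. HDA9 was 98.4% identical to HDA10 and 98.1% to HDA17 over the shorter genes, and HDA10 was at 0 in all libraries. Overlapping genes on the opposite strand were found for HD2A (AT3G44740, 315 bases), HD2B (AT5G22660, 261 bases) and HAM1 (AT5G64600, 26 bases). The neighbour of HD2A was at 4.46 to 6.6 TPM over all libraries and that of HD2B at 0 to 1.18 TPM. The neighbour of HAM1 was at 9.35 to 13.8 TPM. A strand setting is not given in the sources used here, so reads in the overlaps cannot be told apart.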

How the data were processed

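Total RNA of whole seedlings was extracted with a Promega kit and sequenced after NEBNext Ultra library preparation, per the labels' protocols. The values are TPM, made by the authors and deposited as 1 table of 27655 genes with 12 columns that each sum to 1000000. The build TAIR10 and the tools DESeq2 1.26.0, HISAT2 2.1.10 and fastp 0.20.1 are named, with no role or order, per the submitters' processing notes. The read counter is not given in the sources used here.

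Whole reads were recovered from TPM and gene span for 99.98% of the expressed genes with a span (tolerance 0.01) and from another length for 160 genes. Gene names (99.24% of identifiers matched), lengths, overlaps and coding identity were taken from RefSeq's annotation of TAIR10.1. Since the builds are named differently, no coordinates are given, and no promoter or protein sequence was used here.

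One linear model of the 4 group means over 12 libraries (8 residual degrees of freedom) was fitted to log2(TPM + 1) by limma 3.58.1 (R 4.3.3) with a mean-variance trend. Genes reaching 1 TPM in 3 or more libraries, 19863 in number, entered it, with Benjamini-Hochberg adjustment over all of them and a two-sided threshold of 0.05, and all 10 genes passed this filter. The interaction is the warm change in fve-4 minus that in Col. Other genes were named by a rule, the 2 smallest adjusted p-values in each direction per list and comparison, with HDA9, HDA6, HDA19, HD2D and FVE added. Not all genes that the rule names are printed. The genes and lists were chosen with earlier results of these data known. The fits were tested on simulated data. Alternatives were a pseudocount of 0.1, no filter, median-ratio rescaling, no variance trend, a replicate block, limma-voom on recovered reads and leaving out each library. Tables and figures used Python 3.11.15 with numpy 2.4.6, pandas 2.3.3, matplotlib 3.10.9 and Biopython 1.88.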

Additional observations from a re-analysis of the deposited data

Results flagged for a closer look

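In 5 of the 10 genes the warm change differed between fve-4 and Col by a test of the difference itself, the interaction in limma. Over all genes tested, 14.4% were called positive and 18.0% negative in the interaction. The difference, fve-4 minus Col, was 0.96 for HD2A, 0.61 for HD2B and 0.45 for HD2C on the log2 scale. It was -0.31 for HAC1 and -0.33 for HAM2. For HD2A and HD2B the wild type fell with warmth and the mutant did not pass, and for HD2C the mutant rose and the wild type did not pass. For HAM2 both genotypes rose, and for HAC1 only the wild type passed. The 3 HD2 differences kept their call under all 18 alternatives, while those of HAC1 and HAM2 were lost in 6 and 4 of the fits that left out 1 library.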

How the results depend on the processing

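Each of the 50 changes of the 10 genes was recomputed under 18 alternatives, 900 values in all, of which 858 kept direction and call, 26 lost the call, 5 gained one and 11 changed sign. For other named genes these numbers were 1509, 78, 2 and 13 of 1602, and 126 of 1080 list counts moved by over 1.5 times. The sign changes all concern differences near 0 that passed no test. Median-ratio rescaling and limma-voom turned HD2A in fve-4 with warmth to -0.05 and -0.05, HD2C in Col to -0.07 and -0.08, HDA9 between the genotypes at 21 °C to -0.01 and -0.01, HDA19 in Col to -0.05 and -0.05 and in fve-4 to -0.07 and -0.07, and HDA6 in Col to -0.04 and -0.04. Without 1 library, the ranges that crossed 0 were -0.05 to 0.15 for the interaction of HAG1, -0.08 to 0.00018 for HAC12 between the genotypes at 21 °C, -0.09 to 0.0023 for HDA15 between them at 27 °C, -0.0024 to 0.07 for HD2A with warmth in fve-4, -0.004 to 0.07 for HD2C in Col, -0.01 to 0.04 for HDA19 in fve-4, and for HDA6 -0.07 to 0.0037 in fve-4 and -0.00075 to 0.10 in Col.

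Without 1 library, the genes higher with warmth numbered 4 to 6 in fve-4 and 5 to 7 in Col, those lower in fve-4 than in Col 0 to 1 at 27 °C and 2 to 3 at 21 °C, those higher at 21 °C 0 to 1, and those with a negative interaction 0 to 2. With no variance trend, 1 gene (HAM2) was higher in fve-4 at 21 °C, against 0 with the trend. Why these counts moved was not tested. Over all genes, 1687 were lower in fve-4 at 21 °C, 2723 by limma-voom and 1083 without fve-4 at 21 °C replicate 1. With the replicate number as a block, the counts higher and lower were 5 and 0 (fve-4 with warmth), 6 and 2 (Col), 3 and 1 (27 °C), 0 and 3 (21 °C) and 3 and 2 (interaction), the same as without it. Libraries of 1 number deviated from their group means with correlations of -0.135 to 0.187, so the numbers were not taken as pairs. The search for promoter motifs was not run, since no promoter table was used here. At 176 to 286 reads per library, HAG1 is the gene for which depth limits the precision most.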

Other observations

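Of the 20 other acetyltransferase and deacetylase genes, 5 fell under the filter on low values (HAC2, HAF2, HDA7, HDA10 and HDA17) and were not tested. HAC2 (AT1G67220), of the CBP family, was chosen for description after its values were seen. It was at 0.196, 0.367 and 0.536 TPM in fve-4 at 27 °C, against 0.102, 0.0329 and 0 TPM in Col at 27 °C. In the cool, HAC2 had 0.321, 0.199 and 0.397 TPM in fve-4, against 0.0361, 0.0327 and 0 TPM in Col at 21 °C. Every fve-4 library was above every Col library, with 0 to 16 reads per library in all.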
